A study of Homo sapiens with 12 samples.

Results

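The genes described here encode the 3 TGF-beta ligands (TGFB1, TGFB2 and TGFB3), the receptors TGFBR1, TGFBR2 and ACVRL1 (the ALK1 receptor), the co-receptors TGFBR3 (betaglycan) and ENG (endoglin), and the inhibitory SMADs SMAD6 and SMAD7. They were chosen by name, as the rows of an RNA-seq expression table whose symbol is one of these 10, out of 56593 distinct symbols. The study followed H1, an established human embryonic stem cell line, on its way to blood cells. Its 12 libraries comprise undifferentiated H1 cells, APLNR+ cells taken at day 2 (mesoderm), CD31+CD34+ cells taken at day 5 (hemogenic endothelial progenitors, HEPs) and CD43+ cells taken at day 8 (hematopoietic progenitor cells, HPCs), with 3 libraries of each. Cultures were held in Custom mTeSR1 medium with activin A and BMP4 for 2 days, and then in the same medium with VEGF and bFGF for 6 days. APLNR+ cells thus came directly out of a medium holding 2 ligands of the TGF-beta superfamily, whereas the later populations had been moved to a medium without added activin A or BMP4. Undifferentiated H1 cells were maintained in mTeSR medium, whose own factors the study does not list. All libraries derive from 1 cell line. The methods speak of independent experiments for the work as a whole, but no label ties the 3 libraries of a population to separate cultures, so the p-values below measure the spread between these libraries, which may be technical.

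TGF-beta ligands are secreted in a latent form that has to be freed before it can bind. The free ligand brings TGFBR2 together with TGFBR1, which phosphorylates SMAD2 and SMAD3. In endothelial cells, ACVRL1 with its co-receptor endoglin signals mainly to SMAD1 and SMAD5 and is best known as a receptor of BMP9 and BMP10. SMAD6 and SMAD7 are induced by these same pathways and block them, SMAD6 chiefly on the BMP side and SMAD7 on both. TGF-beta signaling is known to restrain the passage from endothelium to blood, and the study asked about that passage.

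The promoters of 4 of these genes are shown as examples. SMAD6 and TGFB1 rose first, TGFB1 again at the endothelial stage, where ENG and TGFBR2 rose too. Each window holds 300 bases around a RefSeq transcription start on GRCh38.p14, most of them before it, is written 5′ to 3′ on the strand of the gene, and carries in capitals the matches to the motifs searched on both strands. SMAD6 stands at chr15:66701986-66702285 (plus strand), with GTCTAGAC, a palindromic SMAD-binding element, in capitals. ENG stands at chr9:127854609-127854908 (minus strand) and TGFB1 at chr19:41353873-41354172 (minus strand). For TGFBR2 the window at chr3:30606351-30606650 (plus strand) is 1 of 2 that RefSeq gives. In the latter 3 the capitals mark TTCCTG, the reverse complement of the ETS motif CAGGAA.
SMAD6: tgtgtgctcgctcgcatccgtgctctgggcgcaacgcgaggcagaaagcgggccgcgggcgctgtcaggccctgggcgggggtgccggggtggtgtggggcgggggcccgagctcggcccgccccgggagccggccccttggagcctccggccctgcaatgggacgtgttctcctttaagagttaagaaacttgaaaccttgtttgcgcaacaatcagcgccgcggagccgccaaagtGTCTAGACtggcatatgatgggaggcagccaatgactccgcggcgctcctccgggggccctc
ENG: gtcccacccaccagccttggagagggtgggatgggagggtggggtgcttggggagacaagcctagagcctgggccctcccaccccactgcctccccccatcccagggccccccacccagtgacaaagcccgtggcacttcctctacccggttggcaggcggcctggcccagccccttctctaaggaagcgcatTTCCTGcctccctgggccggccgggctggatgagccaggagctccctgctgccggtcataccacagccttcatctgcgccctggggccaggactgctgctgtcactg
TGFB1: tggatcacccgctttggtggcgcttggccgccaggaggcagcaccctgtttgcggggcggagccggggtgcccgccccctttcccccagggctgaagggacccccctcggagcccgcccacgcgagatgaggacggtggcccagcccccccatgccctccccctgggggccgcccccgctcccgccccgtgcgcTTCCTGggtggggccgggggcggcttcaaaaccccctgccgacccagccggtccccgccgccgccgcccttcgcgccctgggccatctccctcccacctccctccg
TGFBR2: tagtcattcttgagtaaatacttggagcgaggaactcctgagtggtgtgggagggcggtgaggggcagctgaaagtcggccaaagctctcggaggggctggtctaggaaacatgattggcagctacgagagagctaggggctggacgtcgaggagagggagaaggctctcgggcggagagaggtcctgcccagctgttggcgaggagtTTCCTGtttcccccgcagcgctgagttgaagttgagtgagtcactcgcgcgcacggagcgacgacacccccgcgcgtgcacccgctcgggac
GTCTAGAC occurred in 0.202% of 35116 promoter windows of the same length. An ETS motif (CCGGAA or CAGGAA) was far more common, at 41.4% of the windows, and a GATA motif (AGATAA or TGATAA) occurred in 16.3%. None of the 4 windows held a GATA match. Each of the windows shown holds a marked motif, so they do not stand for all windows of genes with like profiles. The window of TGFBR3, which also rose at the endothelial stage, and the other window of TGFBR2 held no match to any motif searched. SMAD7, which also rose first, had no GTCTAGAC in its windows, but the window at chr18:48949284-48949583 (minus strand) held 2 ETS matches. These matches describe the letters in the windows and are not evidence of binding.

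Values are given in FPKM, fragments scaled to transcript length and library size, so that levels can be set side by side between genes. The libraries listed between 12297 and 13060 symbols at 1 FPKM or more, and their relative depth, read from the spacing of low values, ranged from 0.553 to 1.27 with replicate 1 the shallowest of each population. Absolute depth is unknown. Genes of small RNAs took 10.4% to 66.2% of a library's FPKM sum. The levels of other genes may therefore depend on the scaling, and other scalings were tried as well. None of the 120 values of the 10 genes was listed at 0. The labels were checked against marker genes: pluripotency markers summed to between 1639 and 1725 FPKM in H1, mesoderm markers to between 525 and 571 FPKM in APLNR+ cells, endothelial markers to between 509 and 653 FPKM in CD31+CD34+ cells and blood markers to between 197 and 270 FPKM in CD43+ cells. Pluripotency markers still summed to between 592 and 631 FPKM in APLNR+ cells, where POU5F1 averaged 354 ± 20.8 FPKM. Most of the mesoderm sum was APLNR itself, the gene of the sorted antigen, at 383 ± 22.3 FPKM in APLNR+ cells and 403 ± 24.6 FPKM in CD31+CD34+ cells, where the sum was 388 to 437 FPKM. The endothelial and blood lists also hold genes of sorted antigens. PECAM1 (CD31) had 55.2 ± 4.10 FPKM in CD31+CD34+ cells and SPN (CD43) 75.5 ± 15.2 FPKM in CD43+ cells. These sums are thus partly set by the sort itself. PTPRC, the pan-leukocyte gene encoding CD45, was near 0 in CD43+ cells (0.197 ± 0.283 FPKM, SD, n = 3). CD43+ cells also held endothelial markers (328 to 418 FPKM, 8 of 8 at 1 FPKM or more) and megakaryocyte markers (640 to 675 FPKM). In such bulk populations, fewer cells of a type and less RNA per cell cannot be told apart.

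Each step was tested with limma on log2(FPKM + 1) across 14840 genes that reached 1 FPKM in at least 3 libraries. A gene counts as raised or lowered when its Benjamini-Hochberg adjusted p was under 0.05 and the change was at least 2-fold on this scale. Low genes change by more than this scale shows. Of the 10 genes, 8 passed the filter, and TGFB2 and TGFB3 did not. ENG passed it through its CD31+CD34+ and CD43+ libraries alone. TGFB1 and ACVRL1 were under 1 FPKM in every H1 library and passed through the other populations. For ENG, TGFB1 and ACVRL1, reaching 1 FPKM outside their low populations was thus a condition of being tested. From H1 to APLNR+ cells, 4 of the 8 were raised (TGFB1, ACVRL1, SMAD6 and SMAD7) and 0 lowered, where 8.3% of all tested genes were raised and 7.62% lowered. The next step, into CD31+CD34+ cells, raised 5 (TGFB1, TGFBR2, ACVRL1, TGFBR3 and ENG) and lowered 0, against 12.5% and 17.1% of all genes. From CD31+CD34+ to CD43+ cells the picture turned, with 0 raised and 5 lowered (TGFBR1, ACVRL1, ENG, SMAD6 and SMAD7), against 5.58% and 8.79%. The median log2 change of the 8 genes was 0.83, 1.30 and -1.33 at these steps, beside -0.12, -0.01 and 0.00 for all tested genes. Consecutive steps share a population, so these counts are not independent of each other.

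**Figure D1:**
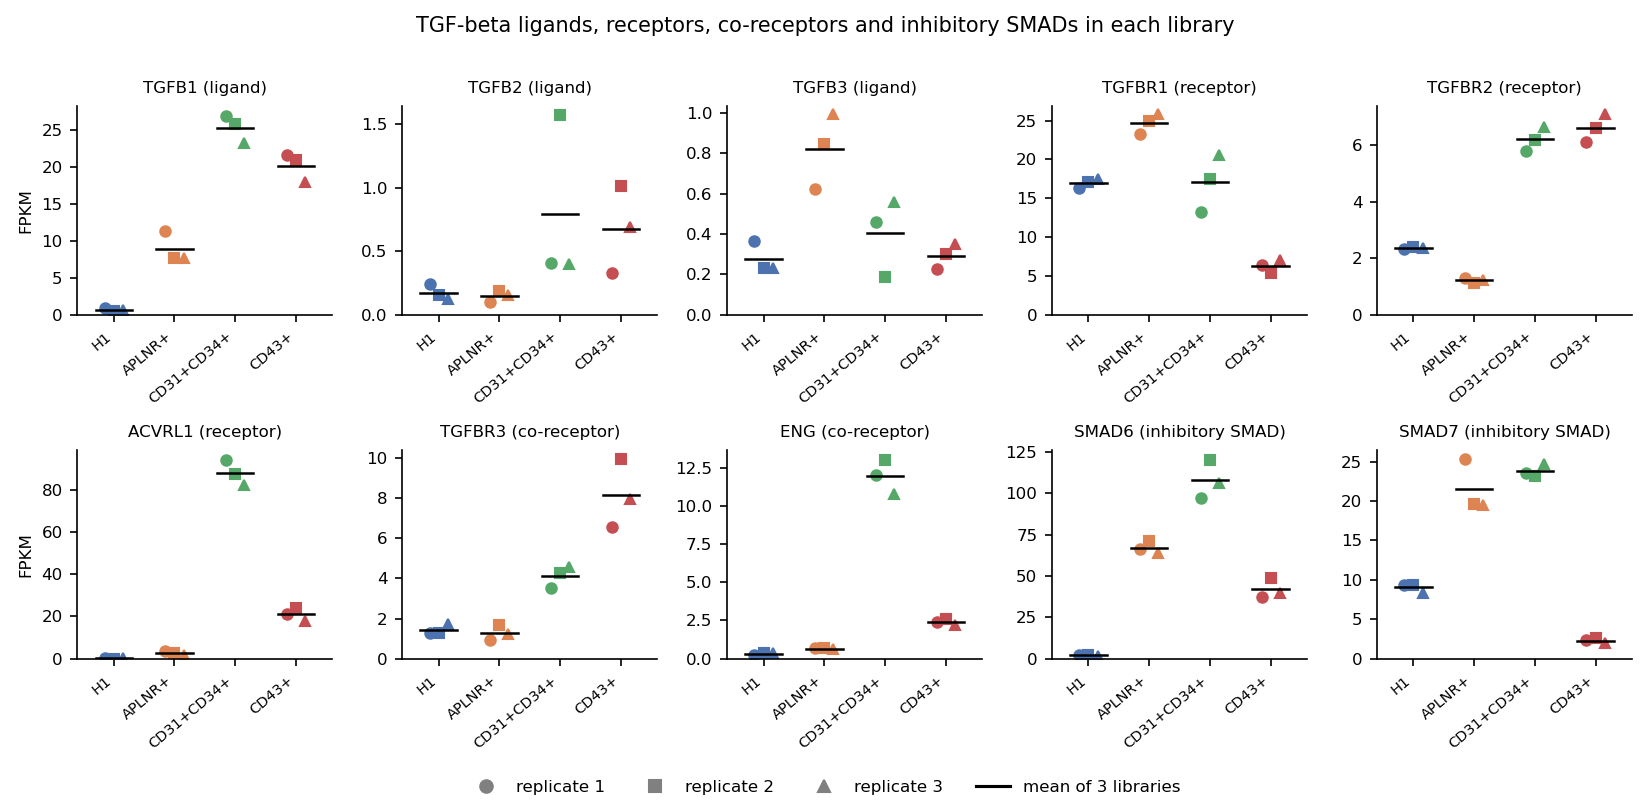
FPKM of the 10 genes (vertical axes, linear, each from 0 with its own scale) in the 12 libraries, grouped by population on the horizontal axis. Symbols mark the replicate number and bars the mean of 3 libraries. ACVRL1, ENG and SMAD6 peak in CD31+CD34+ cells, TGFBR1 in APLNR+ cells and TGFBR3 in CD43+ cells, whereas SMAD7 is lowest in CD43+ cells.

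TGFB1 was the predominant ligand transcript in every population and rose over the first 2 steps. It stood at 0.908, 0.495 and 0.602 FPKM in the H1 libraries (replicates 1 to 3, as in all lists below) and at 11.2, 7.65 and 7.71 FPKM in APLNR+ cells. It reached 26.9, 25.7 and 23.2 FPKM in CD31+CD34+ cells and 21.6, 21.0 and 17.9 FPKM in CD43+ cells. The 4 populations did not overlap in any pair. The mean rose 13.3-fold from H1 to APLNR+ cells (log2 change 2.55 ± 0.15 SE, limma adjusted p = 2.59e-08) and a further 2.85-fold in CD31+CD34+ cells (1.43 ± 0.15, adjusted p = 2.81e-06). The step to CD43+ cells gave -0.32 ± 0.15 on the log2 scale and did not pass the test (adjusted p = 0.0891). CD43+ cells therefore stayed 30.1-fold above H1 (3.67 ± 0.15, adjusted p = 4.1e-10). In the GENCODE 29 annotation, 6.64% of the exon bases of TGFB1 overlap those of HNRNPUL1 on the opposite strand, a gene with 30.5 to 55.8 FPKM here. Whether the authors counted by strand is not stated.

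TGFB2 and TGFB3 remained near or below 1 FPKM throughout. TGFB2 had 0.244, 0.150 and 0.120 FPKM in the H1 libraries and 0.0954, 0.186 and 0.152 FPKM in APLNR+ cells, values that overlapped. It read 0.404, 1.57 and 0.398 FPKM in CD31+CD34+ cells and 0.326, 1.02 and 0.688 FPKM in CD43+ cells, above both earlier populations but with replicate 2 far over the others in CD31+CD34+ cells. TGFB3 was highest in APLNR+ cells, at 0.623, 0.845 and 0.996 FPKM, against 0.364, 0.231 and 0.231 FPKM in H1. It read 0.459, 0.188 and 0.561 FPKM in CD31+CD34+ cells and 0.228, 0.300 and 0.352 FPKM in CD43+ cells, and these 2 populations overlapped each other and H1. For both genes an exact permutation test of 3 against 3 libraries gave p = 0.1, the smallest it can give, where 2 populations did not overlap. Without the filter on low values, TGFB3 differed by 0.51 ± 0.11 on the log2 scale between APLNR+ cells and H1 (limma adjusted p = 0.00539), under the 2-fold limit. TGFB2-OT1 shares 26.6% of the exon bases of TGFB2 on the same strand and had at most 0.0694 FPKM.

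Summed over the 3 ligands, the H1 level of 1.12 ± 0.350 FPKM went to 9.84 ± 1.85 FPKM among APLNR+ cells, then 26.5 ± 2.01 FPKM among CD31+CD34+ cells, and was 21.1 ± 1.89 FPKM among CD43+ cells (SD, n = 3 libraries). TGFB1 made up 59.8% ± 3.36 of this sum for H1, 89.7% ± 3.74 for APLNR+ cells, 95.5% ± 1.71 for CD31+CD34+ cells and 95.4% ± 1.86 for CD43+ cells. The ligand transcripts of the endothelial and blood stages were thus almost wholly TGFB1.

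The receptors of the canonical pathway had different profiles. TGFBR1, the type I receptor, had 16.3, 17.2 and 17.5 FPKM in the H1 libraries and 23.2, 25.0 and 25.9 FPKM in APLNR+ cells. CD31+CD34+ cells held 13.3, 17.4 and 20.6 FPKM and CD43+ cells 6.43, 5.30 and 7.07 FPKM. CD43+ cells lay below every other library, whereas H1 and CD31+CD34+ cells overlapped. The fall into CD43+ cells was 2.73-fold (log2 change -1.30 ± 0.14, adjusted p = 8.79e-06). Changes at the earlier steps stayed under 2-fold, at 0.51 ± 0.14 (adjusted p = 0.00757) and -0.53 ± 0.14 (adjusted p = 0.00487). Between CD31+CD34+ cells and H1 the difference was -0.01 ± 0.14 (adjusted p = 0.95) and took the other sign under other scalings.

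TGFBR2, the type II receptor that binds the ligand, was rarer than TGFBR1 in H1 and rose when TGFBR1 did not. H1 had 2.34, 2.38 and 2.35 FPKM and APLNR+ cells, the lowest population, 1.29, 1.12 and 1.22 FPKM, a difference of -0.60 ± 0.09 on the log2 scale (adjusted p = 9.77e-05) that fell short of 2-fold. CD31+CD34+ cells held 5.81, 6.20 and 6.64 FPKM and CD43+ cells 6.13, 6.62 and 7.09 FPKM, and these 2 populations overlapped. The rise into CD31+CD34+ cells was 5.12-fold (1.70 ± 0.09, adjusted p = 7.73e-09). The next step gave 0.08 ± 0.09 (adjusted p = 0.483).

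ACVRL1, the type I receptor of endothelial cells, had the widest fold range of the 10 genes. It had 0.311, 0.0723 and 0.199 FPKM in the H1 libraries and 3.45, 2.70 and 1.78 FPKM in APLNR+ cells. CD31+CD34+ cells reached 94.2, 87.5 and 82.1 FPKM, and CD43+ cells kept 21.3, 23.8 and 18.0 FPKM. No 2 populations overlapped. The mean rose 33.3-fold between APLNR+ and CD31+CD34+ cells (log2 change 4.63 ± 0.16, adjusted p = 3.06e-10), after a first rise of 1.59 ± 0.16 (adjusted p = 4.69e-06). It then fell by 2.02 ± 0.16 on the log2 scale into CD43+ cells (adjusted p = 6.3e-07), a 4.18-fold lower mean that remained 7.95-fold above APLNR+ cells. ACVRL1 was also the most abundant of the 5 receptors and co-receptors in CD31+CD34+ cells, at 87.9 ± 6.08 FPKM.

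The co-receptors separated at the last step. ENG, whose product presents ligand to ACVRL1, had 0.262, 0.345 and 0.385 FPKM in the H1 libraries and 0.684, 0.677 and 0.626 FPKM in APLNR+ cells. CD31+CD34+ cells held 12.003, 13.0 and 10.8 FPKM and CD43+ cells 2.38, 2.57 and 2.23 FPKM, with no overlap between any 2 populations. ENG rose 18.0-fold into CD31+CD34+ cells (log2 change 2.96 ± 0.09, adjusted p = 1.15e-10) and fell 4.99-fold into CD43+ cells (-1.93 ± 0.09, adjusted p = 6.91e-09). The difference between CD43+ and APLNR+ cells, 1.03 ± 0.09 (adjusted p = 6.5e-07), lay just over the 2-fold limit and was 0.99 without CD43+ replicate 2. An antisense gene, AL162586.1, overlaps 7.95% of the exon bases of ENG and had 0.0832 to 0.602 FPKM.

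TGFBR3, which presents TGF-beta to TGFBR2, did not share that fall. It stood at 1.28, 1.26 and 1.75 FPKM in the H1 libraries and at 0.909, 1.68 and 1.23 FPKM in APLNR+ cells, which overlapped. CD31+CD34+ cells had 3.50, 4.28 and 4.57 FPKM, and CD43+ cells were highest at 6.56, 9.96 and 7.94 FPKM. The rise of 3.23-fold into CD31+CD34+ cells passed the test (log2 change 1.18 ± 0.16, adjusted p = 3.55e-05). The following difference of 0.83 ± 0.16 (adjusted p = 0.00103) was under 2-fold on that scale although the libraries did not overlap. Against H1, CD43+ cells were 5.69-fold higher (1.90 ± 0.16, adjusted p = 3.88e-07).

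Endothelial markers changed level across the same populations as ACVRL1 and ENG, though not always the same way. All 8 summed to between 8.42 and 10.7 FPKM for H1 and to 5.31 to 5.57 FPKM for APLNR+ cells, beside the 509 to 653 FPKM of CD31+CD34+ cells and the 328 to 418 FPKM of CD43+ cells. Means were lower in APLNR+ cells than in H1 for 6 of the 8, among them TEK (4.14 from 6.75 FPKM), higher in CD31+CD34+ cells for 8 of 8, and at the last step lower for 5 and higher for 3. Within the list, CDH5 (VE-cadherin) went from 96.8 ± 15.6 to 33.9 ± 6.41 FPKM at the last step, whereas PECAM1 (CD31) went from 55.2 ± 4.10 to 95.9 ± 11.7 FPKM, and CLDN5 and EMCN also had higher means in CD43+ cells. CDH5, PECAM1, EMCN and PLVAP were under 0.1 FPKM in APLNR+ cells. The part of these markers' cells in the changes of ACVRL1 and ENG was not tested.

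Both inhibitory SMADs rose in APLNR+ cells and fell in CD43+ cells, to different degrees. SMAD6 had 2.49, 2.20 and 1.53 FPKM in the H1 libraries and 66.5, 71.4 and 63.6 FPKM in APLNR+ cells. It reached 97.1, 120.2 and 106 FPKM in CD31+CD34+ cells and 37.3, 48.6 and 39.6 FPKM in CD43+ cells. All 4 populations were apart. The first step raised SMAD6 32.4-fold (log2 change 4.48 ± 0.14, adjusted p = 8.91e-11), the largest change of the 8 genes at that step. A further 0.67 ± 0.14 into CD31+CD34+ cells (adjusted p = 0.000755) was under 2-fold. SMAD6 then fell 2.58-fold into CD43+ cells (-1.35 ± 0.14, adjusted p = 4.94e-06), to a level that was still 20.2-fold above H1 (3.80 ± 0.14, adjusted p = 1.6e-10).

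SMAD7 began higher than SMAD6 and ended far lower. H1 held 9.36, 9.38 and 8.38 FPKM, APLNR+ cells 25.3, 19.7 and 19.5 FPKM and CD31+CD34+ cells 23.5, 23.2 and 24.8 FPKM, with the latter 2 populations overlapping. CD43+ cells held 2.31, 2.59 and 1.96 FPKM, below every H1 library. The rise at the first step was 2.38-fold (log2 change 1.15 ± 0.11, adjusted p = 3.45e-06), and the middle step gave 0.15 ± 0.11 (adjusted p = 0.247). Into CD43+ cells SMAD7 fell 10.4-fold (-2.92 ± 0.11, adjusted p = 1.44e-09), the largest fall of the 8 genes, and ended 3.95-fold under H1 (-1.61 ± 0.11, adjusted p = 6.46e-08).

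**Figure D2:**
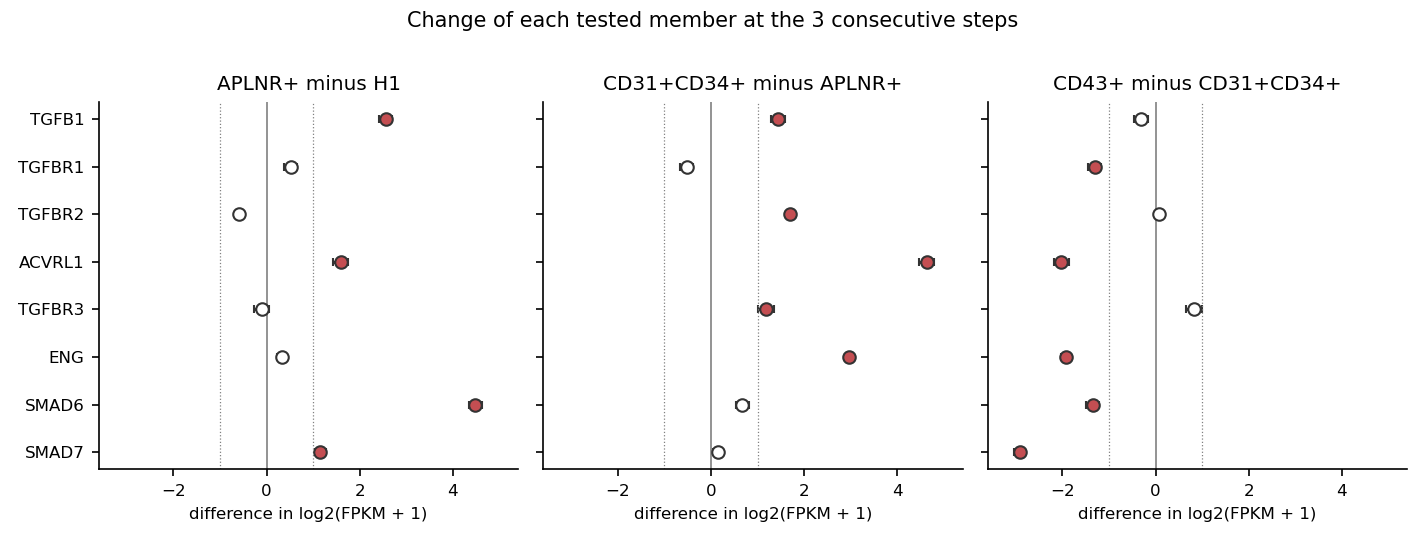
Differences in log2(FPKM + 1) at the 3 consecutive steps (horizontal axes) for the 8 genes that passed the filter. Bars are standard errors from limma, dotted lines the 2-fold limits, and filled points the genes raised or lowered. SMAD6 leads the first step (4.48), ACVRL1 the second (4.63) and SMAD7 the fall at the last (-2.92).

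Comparisons that skip a step place the ends of the series side by side and share libraries with those above. CD43+ cells against H1 had 6 of the 8 genes raised and 2 lowered (SMAD7 and TGFBR1), where 14.6% of all genes were raised and 22.5% lowered. Between CD31+CD34+ cells and H1, 7 were raised and 0 lowered, beside 16.9% and 23.2% of all genes, and the remaining gene was TGFBR1. Against APLNR+ cells, CD43+ cells had 5 raised and 2 lowered, beside 14.1% and 19.4%, the lowered ones again SMAD7 (-2.77 ± 0.11, adjusted p = 6.53e-10) and TGFBR1 (-1.83 ± 0.14, adjusted p = 1.75e-07).

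Ratios between pairs of these genes within a library do not depend on how the library was scaled. For 6 ratios, an exact permutation test of the F statistic over all 369600 ways of dealing the 12 libraries into 4 populations was run, on log2 ratios with 0.01 added to both values, with Benjamini-Hochberg adjustment over the 6, and its smallest possible p is 6.49e-05. It asks only whether a ratio differs among the 4 populations, not which of them differ or on which side of 1 they lie. Between 2 populations such a test cannot give a p under 0.1. The ratio of ACVRL1 to TGFBR1, the alternative type I receptors, ran from 0.00422 to 0.0191 in H1, from 0.0688 to 0.148 in APLNR+ cells, from 3.98 to 7.11 in CD31+CD34+ cells and from 2.54 to 4.49 in CD43+ cells. TGFBR1 transcripts thus exceeded ACVRL1 in all H1 and APLNR+ libraries, and ACVRL1 exceeded TGFBR1 in all libraries of the later populations. Over the 4 populations the exact permutation test gave p = 0.00013 (adjusted p = 0.000195). CD31+CD34+ and CD43+ cells overlapped in this ratio, although both genes fell between them. TGFBR1 to TGFBR2 went from 6.99 to 7.42 in H1 and 18.0 to 22.2 in APLNR+ cells down to 2.28 to 3.10 in CD31+CD34+ cells and 0.801 to 1.05 in CD43+ cells, where the receptor transcripts were about level (exact permutation p = 6.49e-05, adjusted p = 0.000195).

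SMAD6 to SMAD7 rose at each step without overlap, from 0.183 to 0.266 in H1, 2.63 to 3.63 in APLNR+ cells and 4.13 to 5.19 in CD31+CD34+ cells up to 16.2 to 20.2 in CD43+ cells. The exact permutation test over the 4 populations gave p = 6.49e-05 (adjusted p = 0.000195). SMAD7 was the more abundant inhibitor in H1 alone. ENG to TGFBR3 was 0.204 to 0.273 in H1 and 0.402 to 0.752 in APLNR+ cells. It was 2.36 to 3.43 in CD31+CD34+ cells but 0.258 to 0.363 in CD43+ cells, and ENG exceeded TGFBR3 in the CD31+CD34+ libraries only. Over the 4 populations the exact permutation test of this ratio gave p = 0.00013 (adjusted p = 0.000195). H1 and CD43+ cells overlapped in this ratio. Among the ligands, TGFB3 to TGFB1 went from 0.383 to 0.468 in H1 down to 0.0105 to 0.0196 in CD43+ cells (exact permutation p = 0.000649, adjusted p = 0.000779). TGFB2 to TGFB1 was 0.200 to 0.304 in H1 and at most 0.0611 elsewhere, with the other 3 populations overlapping (exact permutation p = 0.00942, adjusted p = 0.00942).

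**Figure D3:**
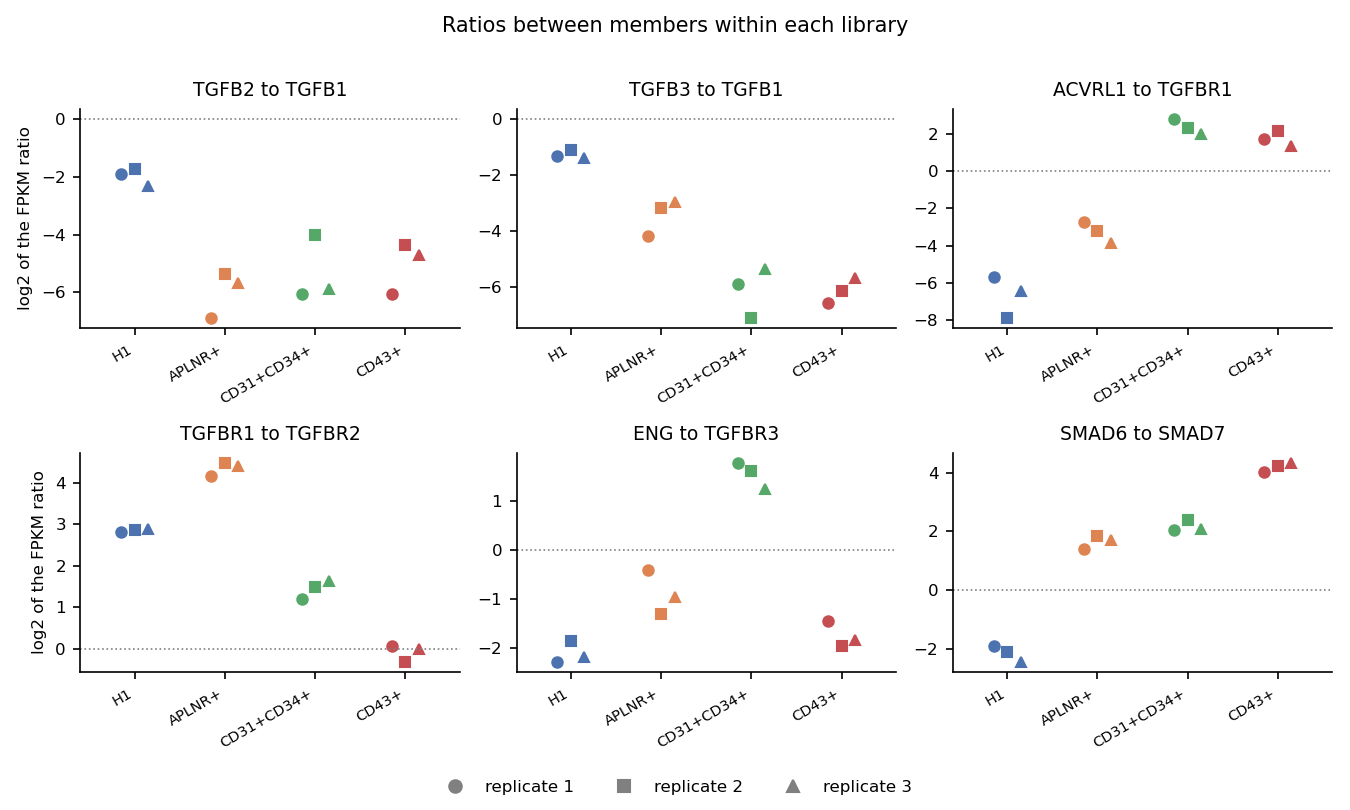
Base-2 logarithm of 6 FPKM ratios (vertical axes, each with its own scale) in the 12 libraries, by population on the horizontal axis. Symbols mark replicate numbers, and the dotted line marks equal levels. ACVRL1 to TGFBR1 crosses this line between APLNR+ and CD31+CD34+ cells, and SMAD6 to SMAD7 between H1 and APLNR+ cells.

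Other genes of the pathway were followed through 4 lists of general knowledge, counted in the same fit and read beside the background percentages given above for each step. The first list holds genes that store, process or activate latent TGF-beta, of which 13 of 15 passed the filter. From H1 to APLNR+ cells 6 were raised and 0 lowered, beside 8.3% and 7.62% of all tested genes. They were led by LRRC32, which tethers latent TGF-beta to the cell surface (7.22 ± 0.269 FPKM from 0.253 ± 0.146, log2 change 2.72, adjusted p = 3.14e-10), and by the microfibril gene FBN1 (8.81 ± 0.434 from 1.54 ± 0.387, log2 change 1.96, adjusted p = 2.79e-08). Into CD31+CD34+ cells 4 were raised and 3 lowered, beside 12.5% and 17.1% of all tested genes, and the number lowered was near that share. NRROS, a tether of latent TGF-beta known from myeloid cells, went from 0.167 ± 0.0811 to 13.9 ± 0.320 FPKM (3.68, adjusted p = 6.69e-11), and EMILIN1, a matrix protein that limits processing of the precursor, from 1.74 ± 0.608 to 20.5 ± 3.72 FPKM (2.98, adjusted p = 5.06e-08). The beta subunits of integrins that can activate latent TGF-beta fell most, ITGB5 by 1.53 and ITGB8 by 1.39 on the log2 scale. Into CD43+ cells 1 was raised and 6 lowered, beside 5.58% and 8.79% of all tested genes, and the number raised was near that share. The gene raised was THBS1, thrombospondin, an activator abundant in platelets (48.9 ± 4.10 from 5.52 ± 1.45 FPKM, log2 change 2.95, adjusted p = 1.31e-08), a step at which megakaryocyte markers went from 11.7 to 17.2 FPKM up to 640 to 675 FPKM. The part of those cells in the rise of THBS1 was not tested. ITGB5 (-2.62) and LTBP2 (-2.43) fell most. Median log2 changes of the list were 0.87, 0.51 and -0.20.

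Among the receptor-activated and common SMADs, SMAD9 alone was called at a consecutive step, whereas several regulators were. All 22 genes of this list passed the filter, with 4 raised and 2 lowered in APLNR+ cells, beside 8.3% and 7.62% of all tested genes. Counts were 0 and 4 in CD31+CD34+ cells, beside 12.5% and 17.1%, and 2 and 5 in CD43+ cells, beside 5.58% and 8.79%. The numbers lowered at the first and second steps were thus near the share of all genes. SMAD1, SMAD2, SMAD3, SMAD4 and SMAD5 were not called raised or lowered at any of the 3 steps, which does not mean unchanged. SMAD3 fell just short of the 2-fold limit in APLNR+ cells (5.45 ± 1.07 from 2.22 ± 0.206 FPKM, log2 change 0.994, limma adjusted p = 0.000602). Into CD31+CD34+ cells SMAD3 changed by -0.78 (adjusted p = 0.00219) and SMAD2 by -0.64 (adjusted p = 0.00113). SMAD5 changed by -0.67 there (adjusted p = 0.00996). For SMAD1 and SMAD4 no step gave an adjusted p under 0.106. SMAD9, which acts on the BMP side, rose from 0.156 ± 0.0436 to 2.26 ± 0.0211 FPKM in APLNR+ cells (log2 change 1.497, adjusted p = 8.11e-07). SMAD2 went from 46.2 ± 1.56 FPKM in H1 through 57.7 ± 5.49 and 36.6 ± 4.58 to 30.2 ± 6.07 FPKM in CD43+ cells, whereas SMAD3 had between 2.11 and 5.45 FPKM on average. BAMBI, a decoy receptor that lacks kinase activity, rose most at the first step, from 10.4 ± 0.892 to 126 ± 12.7 FPKM (log2 change 3.49, adjusted p = 4.4e-10), followed by LDLRAD4, an inhibitor of SMAD phosphorylation (1.59, adjusted p = 4.33e-05). The corepressors TGIF1 (-1.01) and SKIL (-1.001) fell at that step by barely 2-fold. SKIL, a corepressor encoding SnoN, was lowered at all 3 steps, though at the first only at the 2-fold limit. It went from 87.7 ± 7.69 FPKM in H1 to 43.4 ± 4.72, 13.6 ± 2.11 and 2.70 ± 0.714 FPKM. TRIM33, a ubiquitin ligase of the SMAD pathway, fell by 1.33 into CD31+CD34+ cells. In CD43+ cells LDLRAD4 rose again (15.3 ± 2.32 from 2.12 ± 0.649 FPKM, log2 change 2.40, adjusted p = 1.42e-06) along with the deubiquitinase gene USP15 (1.03, adjusted p = 0.000653), while SKIL (-1.98) and TGIF1 (-1.52) fell. The list's medians were 0.25, -0.66 and -0.21.

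Of 25 genes taken to respond to TGF-beta, many of which other signals drive too, 24 passed the filter. HAND1 is among them, and the study itself picked that gene partly for its fall from HEPs to HPCs. SNAI1 and SNAI2 were picked by the study partly for their rise from pluripotency to mesoderm, and FN1 was among its representative mesenchymal genes. The changes of these genes, counted below, are therefore not independent of those choices. The first step raised 15 and lowered 0, beside 8.3% and 7.62% of all tested genes. Raised most were the transcription factor genes HAND1 (log2 change 5.43, adjusted p = 3.61e-11) and BHLHE40 (3.48, adjusted p = 1.34e-09). The second raised 10 and lowered 6, beside 12.5% and 17.1% of all tested genes, and the number lowered was not far from that share. COL3A1, a fibrillar collagen, reached 24.2 ± 1.39 FPKM from 0.520 ± 0.279, and TIMP1, a protease inhibitor, 116 ± 19.3 from 14.98 ± 3.55, whereas CTGF (1.80 ± 0.118 from 15.7 ± 1.05) and SNAI2 (2.04 ± 0.308 from 10.03 ± 1.39), an EMT transcription factor, fell most. The third raised 3 and lowered 13, beside 5.58% and 8.79%. TAGLN, a smooth muscle gene, fell from 274 ± 29.4 to 15.7 ± 1.57 FPKM (-4.04, adjusted p = 1.14e-09) and HAND1 by 3.19, but the cell cycle inhibitor CDKN1A rose to 88.8 ± 9.15 FPKM (1.41, adjusted p = 3.36e-07) and the smooth muscle actin gene ACTA2 to 34.8 ± 6.93 FPKM (1.32, adjusted p = 3.51e-05). The medians were 1.52, 0.54 and -1.20. Mesenchymal and smooth muscle markers, 4 of whose 7 genes are also in this list, summed to between 373 and 449 FPKM in CD31+CD34+ cells and 118 and 146 FPKM in CD43+ cells. The lower sum lay mostly in TAGLN and COL1A1 (85.01 ± 8.14 to 19.2 ± 0.485 FPKM), while 4 of the 7 had higher means in CD43+ cells, among them PDGFRB (17.5 ± 4.38 from 13.2 ± 2.27), ACTA2 and COL3A1 (44.2 ± 2.85 from 24.2 ± 1.39). Their part in the fall was not tested.

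Of 14 genes of the ALK1 and endoglin axis, 13 passed the filter, and 4, 7 and 2 were raised and 0, 1 and 8 lowered at the successive steps, with medians of 0.68, 1.08 and -1.24. Of all tested genes, 8.3%, 12.5% and 5.58% were raised and 7.62%, 17.1% and 8.79% lowered at these steps. The first step was led by ID2, an inhibitor of DNA binding (117 ± 11.02 from 12.2 ± 0.366 FPKM, log2 change 3.16, adjusted p = 1.1e-09), and by the type II receptor BMPR2 (12.2 ± 1.33 from 1.74 ± 0.749, log2 change 2.30, adjusted p = 5.23e-07). In CD31+CD34+ cells the arterial connexin genes GJA5 (37.8 ± 3.32 from 2.33 ± 0.149 FPKM, log2 change 3.54, adjusted p = 7.43e-11) and GJA4 (23.03 ± 1.76 from 1.19 ± 0.193, log2 change 3.46, adjusted p = 3.48e-10) rose most. The 1 gene lowered there was ACVR2A, another type II receptor, by 1.77. At the last step ID1 fell from 543 ± 51.5 to 112 ± 11.7 FPKM (-2.27, adjusted p = 8.5e-08) and ID3 from 135 ± 12.7 to 33.1 ± 6.29 FPKM (-2.0045, adjusted p = 1.31e-07). Raised in CD43+ cells were EFNB2, the arterial ephrin (1.39, adjusted p = 2.52e-07), and TMEM100 (1.06, adjusted p = 2.23e-05). BMP10, a ligand of ACVRL1, averaged 5.16 ± 1.44 FPKM in CD31+CD34+ cells and at most 1.57 FPKM in the others, and GDF2 did not pass the filter.

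**Figure D4:**
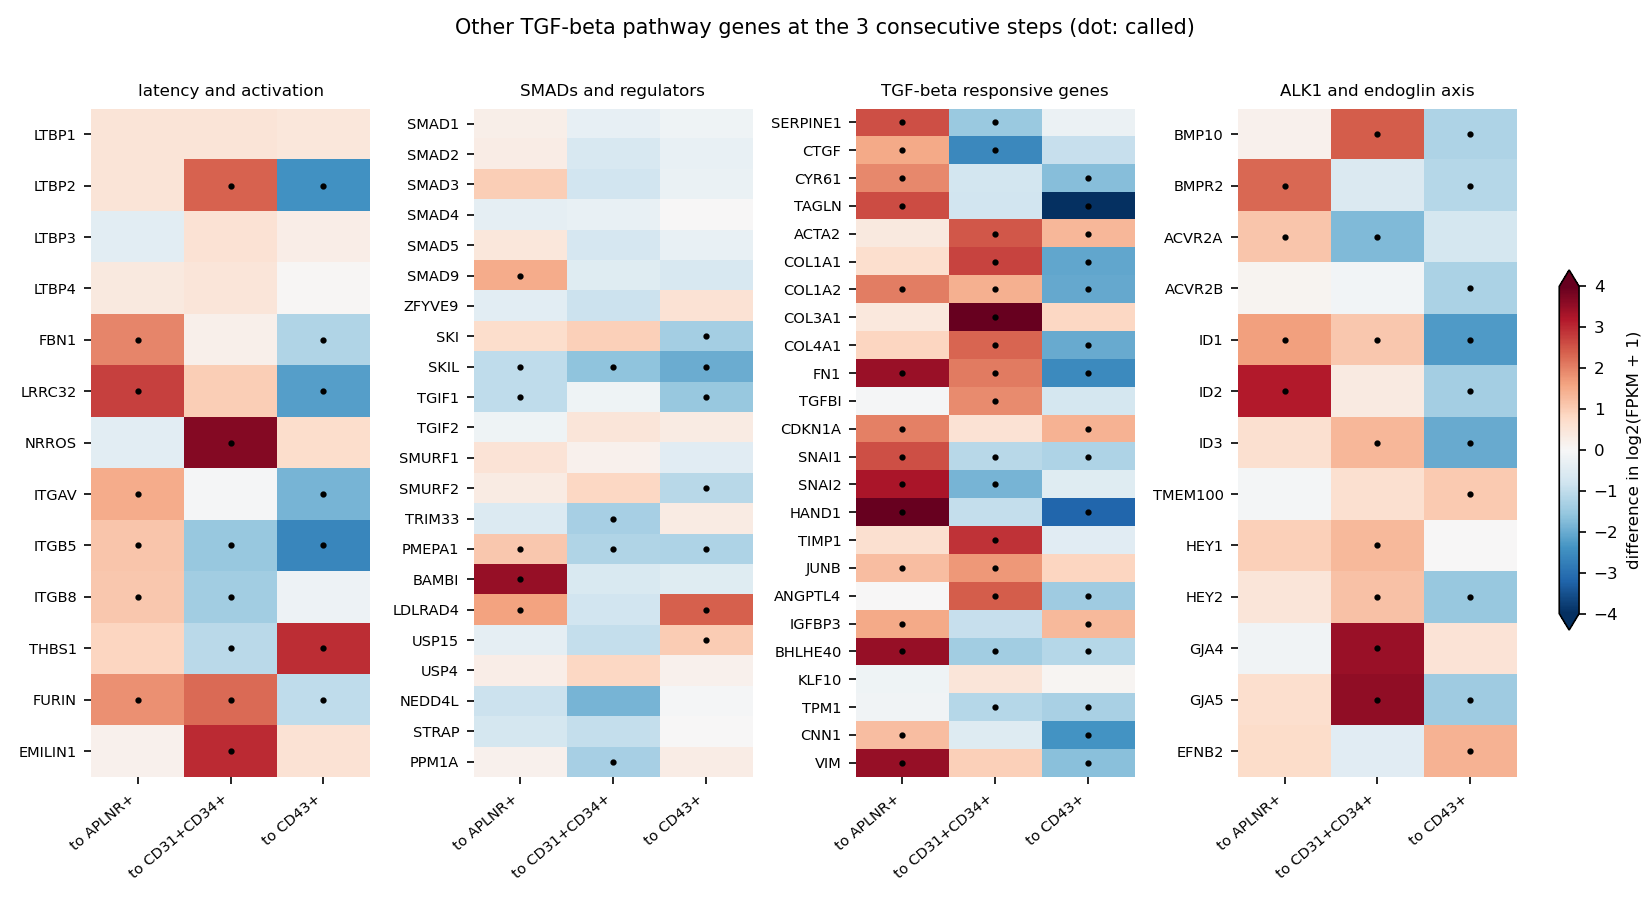
Differences in log2(FPKM + 1) for the tested genes of the 4 lists (rows) at the steps into APLNR+, CD31+CD34+ and CD43+ cells (columns), in color from -4 (blue) to 4 (red), with values beyond this range shown at its ends. Dots mark genes raised or lowered. The panel of responsive genes has 15 raised at the first step and 13 lowered at the last.

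The genes most like each tested member were sought by Pearson's r of log2(FPKM + 1) over the 12 libraries, among genes averaging at least 5 FPKM in some population. The libraries fall into 4 populations and share their scaling, so these values only describe similarity of profile. TGFB1 was nearest to TAGLN2 (r = 0.995), EMILIN2 (0.993) and DUSP1 (0.991), and TGFBR1 to TUFT1 (0.990), CORO2A (0.985) and LAMA1 (0.981). For TGFBR2 they were RASSF2 (0.995), RAB33A (0.995) and MTMR14 (0.993), and for TGFBR3 GSS (0.993), LDB1 (0.992) and XPNPEP1 (0.989). ACVRL1 was close to ITPKB (0.999) and GATA5 (0.997), and ENG to TPPP3 (0.995), ADORA2A (0.995) and NOS3 (0.994). NOS3, the endothelial nitric oxide synthase gene, averaged 40.7 FPKM in CD31+CD34+ cells and 6.41 FPKM in CD43+ cells. SMAD6 resembled KIFC3 (0.994), PRTG (0.992) and TNRC18 (0.991), and SMAD7 LEMD2 (0.990), TNNC1 (0.985) and TEAD3 (0.985). Among the 8 genes themselves, the highest values joined ACVRL1 and ENG (0.956), TGFB1 and SMAD6 (0.924), TGFB1 and ACVRL1 (0.909) and TGFBR2 and TGFBR3 (0.901), and the lowest TGFBR1 and TGFBR3 (-0.841). The inhibitory SMADs had an r of 0.313 with each other, and SMAD7 was closer to TGFBR1 (0.877).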

How the data were processed

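Per the labels, total RNA was made into TruSeq libraries. The authors deposited 1 FPKM table, whose 12 library columns were matched to samples by title. The submitters' processing notes name BWA, Bowtie, RSEM and hg19 without their roles, and neither the annotation nor the scaling between libraries is given in the sources used here. Of 58365 lines, the highest was kept for the 345 symbols on several lines (0 of the genes described). EEF1A1 was listed at 0 in 6 libraries, so a 0 can be a failed estimate.

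The 10 genes, the pathway and marker lists and the tests were chosen with earlier results of these data known. Values were taken as log2(FPKM + 1) and fitted to 4 populations in limma 3.58.1 (R 4.3.3; lmFit, contrasts.fit, eBayes with trend) without covariates, and p-values were adjusted over 14840 genes. The fit was tested on simulated data. Pathway genes named are the 2 largest rises and 2 largest falls per list and step. The 3 genes most alike in profile are named for each tested gene, except 1 that is not reported here. Ratios used FPKM + 0.01. Other settings tried were no filter or a filter at a mean of 5 FPKM, 0.1 as pseudocount, 3 other scalings, the replicate block, replicates 2 and 3 alone, the compared populations alone, eBayes without trend and leaving out each library. Overlaps were read from GENCODE 29 by symbol. RefSeq promoter windows matched 9 of the 10 genes (not ACVRL1), and those not shown were searched too. Python 3.11.15 with numpy 2.4.6, pandas 2.3.3 and matplotlib 3.10.9 was used.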

Additional observations from a re-analysis of the deposited data

How the results depend on the processing

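Log2 changes of the 8 tested genes kept their direction and their side of the thresholds for 454 values under other settings (6 reversed, 2 weaker) and for 572 without 1 library (3 reversed, 1 weaker). TGFBR1 between CD31+CD34+ cells and H1 (-0.01) became 0.062 with upper-quartile scaling and 0.0625 with quantile normalization, 0.18 with equal sums that leave out small RNA genes, 0.12 in replicates 2 and 3 alone, and between -0.15 and 0.15 without 1 library (0.01 without H1 replicate 3 and 0.15 without CD31+CD34+ replicate 1). With equal sums, TGFBR2 from CD31+CD34+ to CD43+ cells was -0.038 and TGFBR3 from H1 to APLNR+ cells 0.014, the latter also 0.014 without APLNR+ replicate 1 (down to -0.23 without another library). None of these 3 differences passed the test before, or under these alternatives. Equal sums also took TGFB1 (0.97) and ENG (0.95) between CD43+ and APLNR+ cells under 2-fold, where the median of all genes moved from -0.07 to -0.18. Relative to that median they were 1.15 and 1.13, beside 1.18 and 1.10 before. ENG was 0.99 without CD43+ replicate 2, so that without 1 library 6 to 7 genes were called in this comparison, and the counts of the other 5 comparisons were the same without any 1 library. The median of all genes moved from -0.12 to 0.04 for APLNR+ cells against H1 and from -0.07 to 0.07 for CD31+CD34+ cells against H1.

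A mean of at least 5 FPKM leaves fewer genes to test and gave 2 called from APLNR+ to CD31+CD34+ cells, 5 for CD43+ cells against H1, 4 for CD31+CD34+ cells against H1, 4 for CD43+ against APLNR+ cells, and 5 of the ALK1 and endoglin list from APLNR+ to CD31+CD34+ cells. The latter list had 7 genes called at the first step with a pseudocount of 0.1, instead of 4. Of the latency and activation list, 4 instead of 7 were called from APLNR+ to CD31+CD34+ cells in replicates 2 and 3 alone. The cause of these last 2 was not tested. The list of SMADs and regulators had 6 genes called from H1 to APLNR+ cells. That count was 5 with upper-quartile scaling, 5 with equal sums without small RNA genes and 4 with quantile normalization. TGFB2 to TGFB1, whose highest and lowest population means differ by 3.95 on the log2 scale, gave 3.49 and an adjusted p = 0.0857 (exact permutation) in replicates 2 and 3 alone, a design of fewer libraries. Deviations of libraries with the same replicate number correlated at -0.02 to 0.43, over 0.1 in 12 of 18 pairs: 6 of 6 for replicate 1 (0.20 to 0.43) and 3 of 6 each for replicates 2 and 3. Different numbers gave -0.40 to 0.29, over 0.1 in 7 of 36. Since not every same-number pair was over 0.1, the numbers were not taken as pairs. With the replicate block, 4, 5 and 5 of the genes were called at the 3 steps, the counts found without it.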

Other observations

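Replicate 1 was the highest or the lowest library in most populations for several of the genes described, a pattern chosen after the values were seen. TGFB1 was highest in replicate 1 in 4 of 4 populations, as were 4.08% of the 14840 tested genes, and ACVRL1 in 3 of 4. TGFBR1, TGFBR2 and TGFBR3 were each lowest in replicate 1 in 3 of 4 populations. This was common, since 40.1% of all tested genes were lowest there in at least 3, so it is no trait of these receptors. Of all tested genes, 14.3% were highest there in at least 3. Replicate 1 was the shallowest library of each population, with a relative depth between 0.553 and 0.745. The part of depth in these differences was not tested.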
